A study of Danio rerio with 6 samples.

Results

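The genes described here are 4 genes associated with neuronal activity that were lower in zebrafish larvae exposed to hydrogen peroxide (H2O2). They are the transcription factor genes npas4a, EGR4 (2 of 2) and nr4a1, and the receptor gene GPR3. Their symbols were looked up in the deposited table, in which each matched 1 gene model, so that 4 of its 670 models are concerned. They were picked because they were lower in treated larvae in these same libraries, and the values of that comparison are therefore given as a description, without a test. Messenger RNA came from whole larvae of the nacre strain, a pigment mutant, in 3 untreated libraries and 3 libraries from larvae kept in 3 mM H2O2. The sample labels give an age of 3 days post fertilization and the series' design text gives 2 hours of treatment, whereas the study's methods give 4 days and 3 hours, and the files do not settle which holds. According to those methods each replicate was a pool of larvae from several mating pairs, and the larvae were anesthetized in tricaine, a blocker of voltage-gated sodium channels, before H2O2 was applied. Whether the untreated larvae also received tricaine is not given in the sources used here, so anesthesia and peroxide cannot be told apart if they did not.

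Neurons that are depolarized let in calcium, which within minutes switches on a set of immediate early genes without new protein synthesis. Npas4, a basic helix-loop-helix PAS factor, is known in rodents for its narrow dependence on calcium entry in neurons and for its part in forming inhibitory synapses. Egr4 is a zinc finger factor of the early growth response family, and Nr4a1 (Nur77) is an orphan nuclear receptor that is also induced by hormones and stress in muscle, endocrine tissue and leukocytes. Gpr3 is not an immediate early factor but a receptor that signals without an added ligand through the stimulatory G protein, which raises cyclic AMP. In mammals it is known from neurons and from oocytes, where it holds meiosis. In libraries made from whole larvae, fewer cells of a type and less RNA per cell cannot be told apart.

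The table holds only gene models that had passed the authors' limits of p under 0.05 and log2 CPM above 1 in these same libraries, CPM being the reads of a gene scaled to a fixed library total. The deposited values are log2(CPM + 1), and turned back into reads they were whole numbers within 0.02 in 100% of models. The library total implied by the CPM scaling was 31811527 to 39766947 reads in untreated and 24727594 to 30400463 reads in treated libraries. Every treated total was thus below every untreated one, so library total and treatment cannot be told apart. Sequencing was paired-end according to the paper, so a read here may stand for a read pair, and this total is not the sequencing depth. The 4 genes were covered by 92 to 3293 reads per library, and the 95% intervals below are exact Poisson intervals that cover counting error only. Of the 59 neuron markers and 23 glia markers listed for comparison, 0 are among the models of the table. Nor are any of the 42 muscle, 40 keratinocyte or 25 pituitary and interrenal markers, so these lists could not be used to check the make-up of the larvae. Genes of these cell types outside the lists, such as kcnc1a for neurons and itgb4 for keratinocytes, are in the table and were not examined. All 4 genes lay lower in every H2O2 library than in every untreated one. Over the whole table this was so for 35.5% of the models, and nothing is read from the comparison because these genes were picked on it.

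The npas4a model (ENSDARG00000055752) lies on chromosome 14 from 31506584 to 31512448 of the Zv9 assembly, on the reverse strand. Its level was 16.8, 28.6 and 24.5 CPM in untreated replicates 1, 2 and 3, from 533, 1139 and 811 reads. In H2O2 replicates 1, 2 and 3 it was 7.29, 3.59 and 3.96 CPM, from 221, 109 and 98 reads. The groups were well apart, and the library nearest to the other group was replicate 1 on both sides, the untreated one being 2.30-fold above the treated one. Mean levels were 23.3 ± 6.03 CPM (SD, n = 3) and 4.95 ± 2.04 CPM (SD, n = 3), so that the treated mean was 21.2% of the untreated mean, or 4.71-fold lower. Leaving out each library in turn gave 4.14-fold to 6.17-fold. On the log2(CPM + 1) scale, which understates the change of low genes, the difference was −2.05 (standard error 0.26). By this difference npas4a ranked 2 among the 256 lower models of the table, behind cs, citrate synthase, which is listed at 0 in 1 treated library.

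The model EGR4 (2 of 2) (ENSDARG00000077799, egr4 in the reference names) lies on chromosome 23 from 45964749 to 45966878, on the reverse strand. Its untreated replicates 1, 2 and 3 stood at 8.71, 12.4 and 12.6 CPM. The treated replicates stood at 4.59, 3.19 and 3.72 CPM, from 139, 97 and 92 reads. As for npas4a, untreated replicate 1 was the lowest untreated library and H2O2 replicate 1 the highest treated one, at 1.90-fold apart. The treated mean was 34.2% of the untreated mean, a level 2.93-fold lower, with 2.70-fold to 3.25-fold when single libraries were left out. The difference in log2(CPM + 1) was −1.33 (standard error 0.17). The symbol denotes the second of 2 models that the annotation names EGR4, the other is not among the models of the table, and reads that fit both copies could have been split between them.

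The receptor gene GPR3 (ENSDARG00000094860) lies on chromosome 19 from 45031400 to 45036187, on the forward strand. It had 13.9, 15.8 and 15.3 CPM in untreated replicates 1, 2 and 3 and 7.79, 6.28 and 5.54 CPM in the treated ones. The untreated libraries were close together, with a coefficient of variation of 6.41%, while the treated libraries spread over 17.5%. The 95% counting intervals of the 3 untreated libraries overlapped one another, spanning 12.7 to 17.1 CPM in all, and did not reach the treated range of 4.65 to 8.85 CPM. Treated larvae held 43.6% of the untreated mean, 2.30-fold less, and the leave-one-out range was 2.13-fold to 2.54-fold. The difference was −1.10 (standard error 0.14) in log2(CPM + 1).

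The nuclear receptor gene nr4a1 (ENSDARG00000000796), on chromosome 23 from 32389912 to 32396444 on the reverse strand, had by far the most reads of the 4, from 1287 to 3293 per library. The untreated levels were 71.0, 82.8 and 69.6 CPM and the treated levels 52.4, 42.3 and 57.0 CPM in replicates 1, 2 and 3. The groups did not overlap, but the gap was narrow, with the lowest untreated library 1.22-fold above the highest treated one. The treated mean was 67.9% of the untreated mean, a 1.47-fold lower level, and 1.36-fold to 1.57-fold with single libraries left out. In log2(CPM + 1) the difference was −0.56 (standard error 0.15), which ranked 85 among the 256 lower models.

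**Figure D1:**
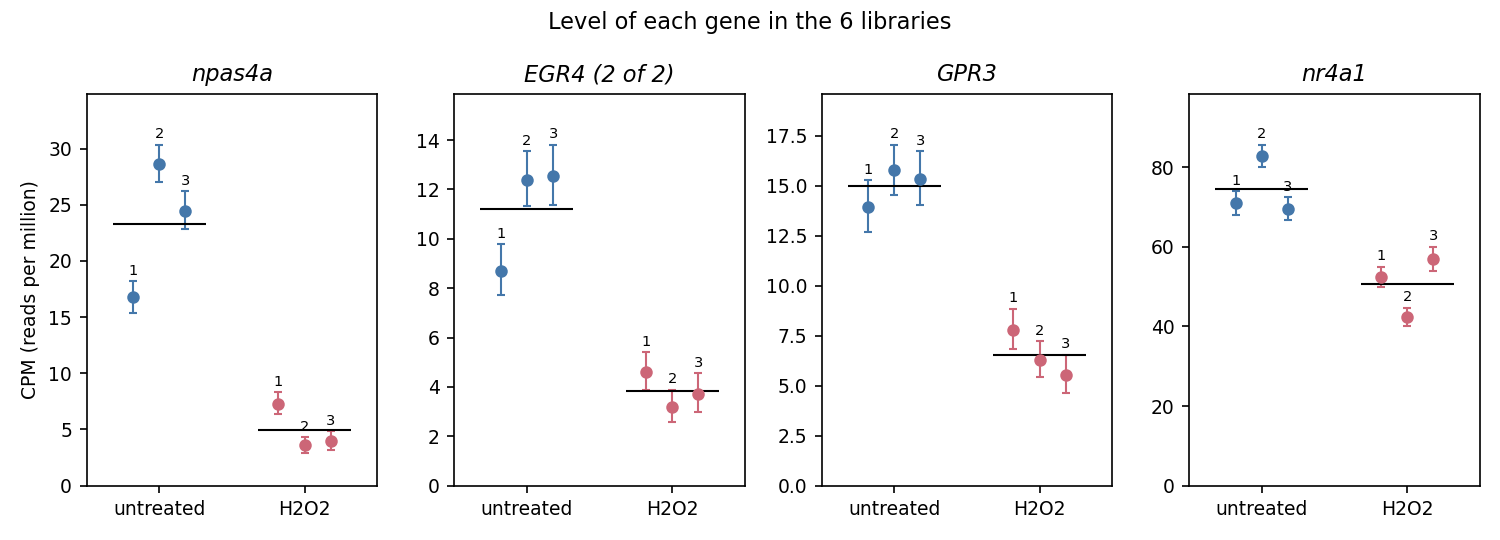
Level of npas4a, EGR4 (2 of 2), GPR3 and nr4a1 in CPM (vertical axis, from 0, a separate scale for each gene) in untreated (blue) and H2O2-treated (red) libraries; points are libraries with their replicate number, whiskers are 95% exact Poisson counting intervals and lines are group means. In all 4 genes the treated libraries lie below the untreated ones, with 2.30-fold between the nearest libraries in npas4a and 1.22-fold in nr4a1.

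Replicates differed by more than counting error in npas4a. The coefficient of variation of its CPM was 25.9% in untreated and 41.2% in treated larvae, whereas its reads carried a counting error of 2.96% to 10.1% per library. Part of the groups of the other genes also spread more than counting error. In nr4a1 the coefficients were 9.72% and 14.8% against a counting error of 1.74% to 2.79%. EGR4 (2 of 2) had 19.4% and 18.4% against 4.50% to 10.4%. GPR3 had 6.41% against 3.99% to 4.75% in untreated libraries, and 17.5% against 6.51% to 8.54% in treated ones. In untreated GPR3 and in treated EGR4 (2 of 2) the 95% counting intervals of the libraries overlapped one another. Overlap of intervals cannot decide whether the spread went beyond counting error there, and this was not tested. The pooled standard deviation of npas4a in log2(CPM + 1) was 0.42, higher than in 95.1% of the models of the table or equal to it, against a median of 0.18. In EGR4 (2 of 2) it was 0.24, and in GPR3 and nr4a1 it was 0.16 and 0.18, close to the median. The table was selected by p, which favours models with a small spread.

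The order of the differences was npas4a, EGR4 (2 of 2), GPR3 and nr4a1. Within each library, the log2(CPM + 1) of a gene was taken relative to that of another. For npas4a relative to EGR4 (2 of 2) this differed by −0.72 (standard error 0.18) between treated and untreated larvae. The values of the groups did not overlap. EGR4 (2 of 2) relative to GPR3 differed by −0.24 (standard error 0.14) with an overlap between the groups. On this scale, which understates the change of low genes, these neighbours in the order did not separate beyond their spread. GPR3 relative to nr4a1 differed by −0.54 (standard error 0.20) without an overlap. These values rest on the comparison by which the genes were picked and are a description.

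**Figure D2:**
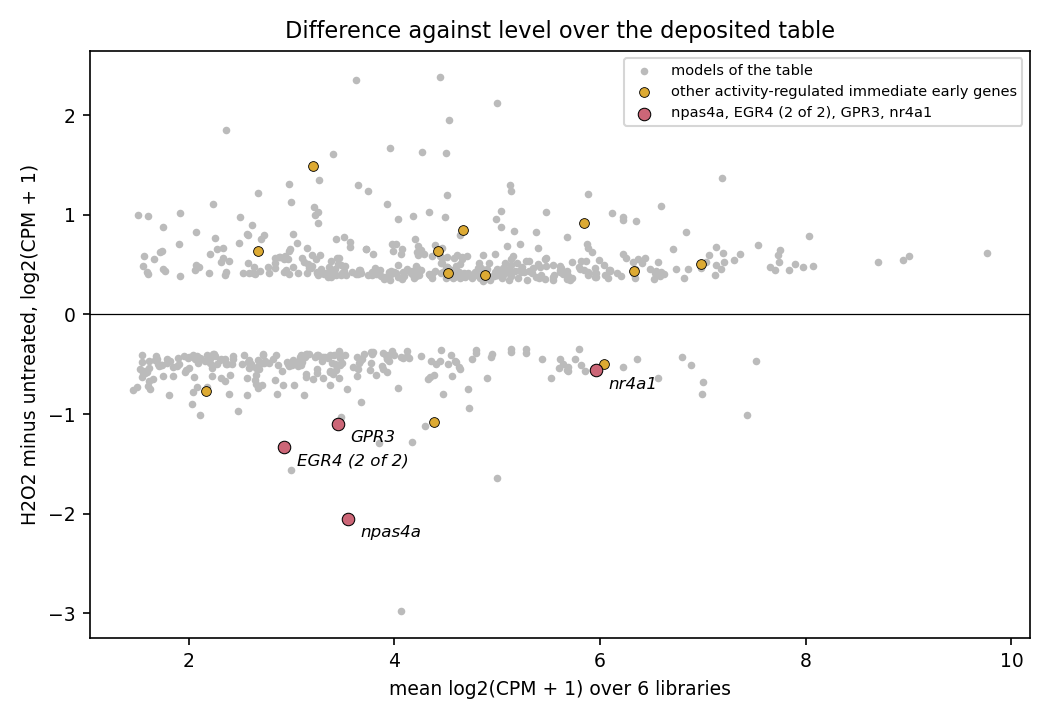
Difference between treated and untreated means in log2(CPM + 1) (vertical axis) against the mean over the 6 libraries (horizontal axis) for the 670 models of the deposited table (grey), with npas4a, EGR4 (2 of 2), GPR3 and nr4a1 in red and the 12 other activity-regulated immediate early genes matched by symbol in yellow. The red points lie at −2.05, −1.33, −1.10 and −0.56, and the empty band around 0 reflects the authors' selection of the table.

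The genes shared some of the order of libraries within a group. In npas4a, EGR4 (2 of 2) and GPR3, untreated replicate 1 was the lowest untreated library and H2O2 replicate 1 the highest treated one. In nr4a1 the lowest untreated library was replicate 3 and the highest treated one was replicate 3. Within the table as a whole, untreated replicate 1 was the lowest untreated library in 47.8% of models and H2O2 replicate 1 the highest treated one in 23.0%. For replicate 3 these shares were 29.9% and 57.6%. They cover higher and lower models together, 61.8% being higher, so they do not give how common these orders are among lower models.

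Profiles over the 6 libraries were compared by the root mean square difference between values of log2(CPM + 1), each taken relative to the untreated mean of its gene. The profile nearest to nr4a1 was that of SIK1, the salt-inducible kinase that in mammals is induced by cyclic AMP and restrains the coactivators of CREB. It differed by 0.06, against a median of 0.69 over the table. SIK1 stood at 6.27, 6.46 and 6.12 in untreated and 5.87, 5.53 and 5.95 in treated replicates 1, 2 and 3, with the libraries in the same order as in nr4a1 in both groups. Next came eif2ak3, the PERK kinase of the unfolded protein response, at 0.10, and si:ch211-195b13.1, which the files annotate as a kinase of the serum- and glucocorticoid-regulated family, at 0.11.

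GPR3 lay nearest to cry2a, a cryptochrome, at 0.07, with a table median of 1.08. In cry2a the values were 7.84, 8.02 and 7.94 in untreated and 7.12, 6.93 and 6.72 in treated replicates 1, 2 and 3, again in the same order of libraries as GPR3. The Hsp40 gene dnaja1l followed at 0.13 and grk1b, a photoreceptor kinase that shuts off opsins, at 0.21. EGR4 (2 of 2) lay nearest to GPR3 itself, at 0.22, then to nfkbiaa, an inhibitor of NF-κB, at 0.24 and cry2a at 0.28. No profile came as close to npas4a. Its nearest were serpinh1b, a collagen chaperone, at 0.48, EGR4 (2 of 2) at 0.54 and plekhf1, an endosomal adaptor, at 0.56. Since models with a like difference between the groups necessarily come out near each other, these values describe the profiles only.

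**Figure D3:**
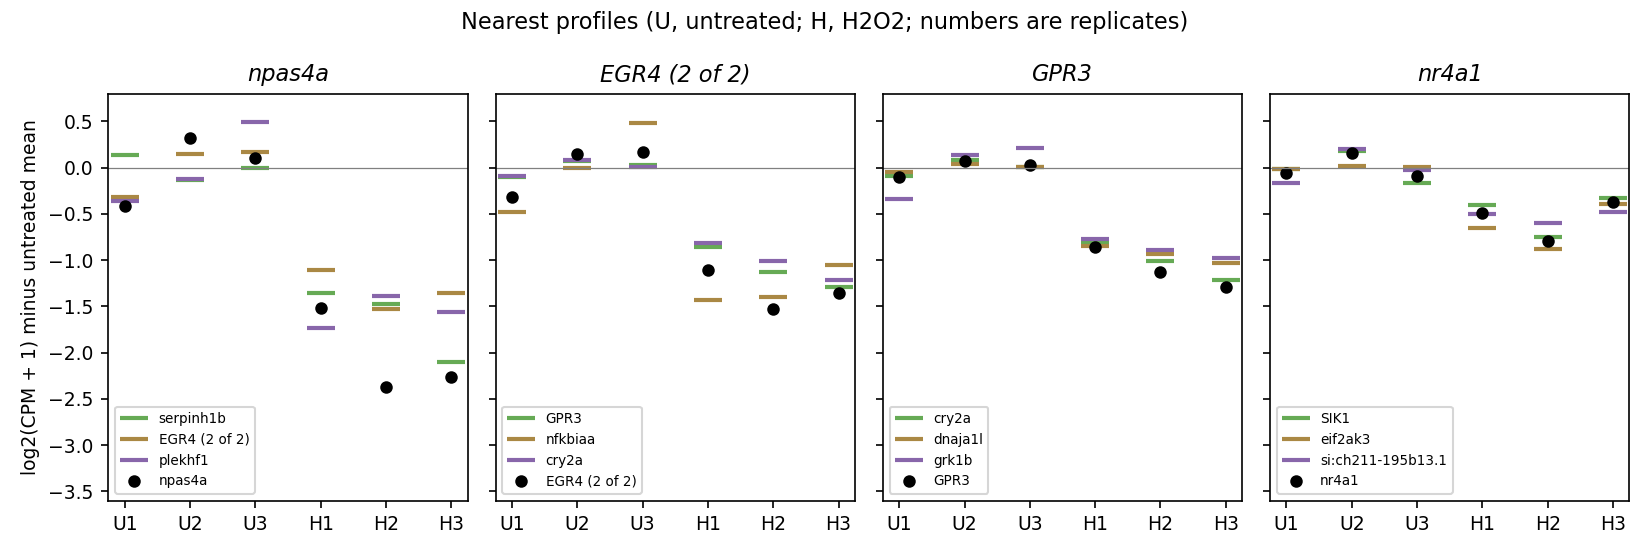
Values of log2(CPM + 1) relative to the untreated mean of each gene (vertical axis) in untreated replicates U1 to U3 and H2O2 replicates H1 to H3 (horizontal axis) for each of the 4 genes (black points) and its 3 nearest profiles of the table (coloured bars). The bars lie close to the points in nr4a1 (0.06 to 0.11) and farther from them in npas4a (0.48 to 0.56).

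The rest of the activity-regulated immediate early genes did not share one direction. Of 85 symbols on that list, 15 matched a model of the table, npas4a, EGR4 (2 of 2) and nr4a1 among them. Of the other 12, 9 were higher and 3 lower in treated larvae, beside 61.8% higher and 38.2% lower in the whole table, with a median difference of 0.47 against 0.40 over the table. Groups did not overlap in 7 of the 9 higher and in all 3 of the lower models. Over the table this was so for 391 of the 414 higher models (58.4% of all models) and 238 of the 256 lower ones (35.5%). In limma, with Benjamini-Hochberg adjustment over all genes that the study counts as expressed, 0 of the 12 passed a threshold of 0.05, as did 0% of the table in either direction. At an unadjusted p under 0.05 in limma there were 8 of the 9 higher and all 3 lower models. Over the table, which had itself been selected by p, there were 372 of the 414 higher models (55.5% of all models) and 253 of the 256 lower ones (37.8%).

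The AP-1 gene fosl1a had the largest positive difference of this list. It stood at 2.49, 2.47 and 2.42 in untreated and at 3.98, 3.26 and 4.60 in treated replicates 1, 2 and 3, and so lay 1.49 higher in log2(CPM + 1) on average, with a standard error of 0.29 and an adjusted p of 0.283 by limma. The cyr61 gene, which encodes a matrix protein induced by serum and by stretch, had the largest negative difference after npas4a and EGR4 (2 of 2). Its values were 4.83, 5.02 and 4.94 in untreated and 3.83, 3.48 and 4.22 in the treated libraries, which made the treated mean differ by −1.08 with a standard error of 0.19 (limma, adjusted p = 0.204). The AP-1 genes junbb and junba had differences of 0.91 and 0.84 (standard errors 0.38 and 0.38), with groups that overlapped, and atf3, a stress-induced factor that pairs with Jun proteins, had one of 0.64 (standard error 0.17). The other lower models were SIK1 at −0.50 (standard error 0.16) and the AP-1 gene jund at −0.77 (standard error 0.19). Through the reference names a further model joined the list, CU638738.1, which these give as fosaa, a Fos gene. It was lower, from 4.86, 5.06 and 4.68 to 4.23, 3.89 and 4.10, by −0.80 (standard error 0.15), which made 9 higher and 7 lower models. The models junbb, junba, atf3, jund and CU638738.1 were chosen after their values were seen.

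Across these 16 models, H2O2 replicate 2 was the lowest treated library in 14, in higher and lower genes alike, and the highest in 0. Over the table it was the lowest in 47.5% of models. This count was made after the values were seen. Without H2O2 replicate 2 the difference of npas4a was −1.89 and that of nr4a1 was −0.44.

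**Figure D4:**
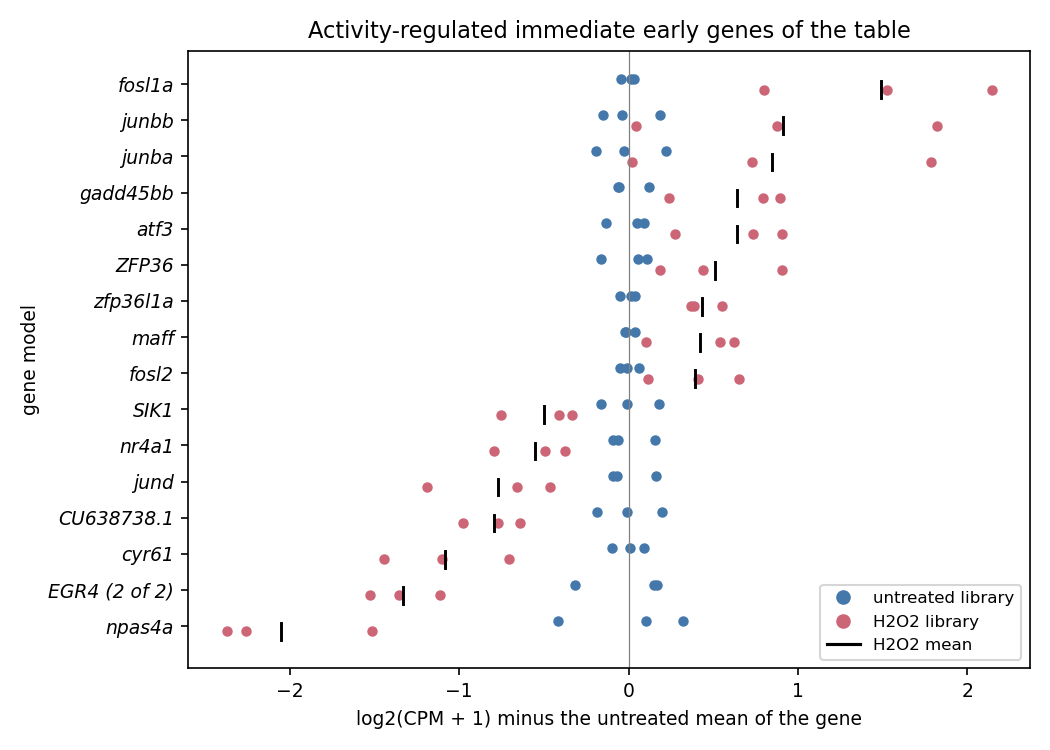
Values of log2(CPM + 1) relative to the untreated mean of each gene (horizontal axis) for the 16 activity-regulated immediate early gene models of the table (vertical axis), with untreated libraries in blue, treated libraries in red and the treated mean as a black line. Means run from 1.49 in fosl1a to −2.05 in npas4a, with 9 genes above 0 and 7 below.

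Relatives and partners of the 4 proteins were looked up in the same way. In limma 0 of these passed the adjusted threshold, as did 0% of the table in either direction. Of 19 symbols for the EGR and NR4A families with their partners, the other models found were nab1b, a corepressor of EGR factors, at 0.43 (standard error 0.14, limma adjusted p = 0.904), and rxrba, a retinoid X receptor with which Nr4a1 can pair, at 0.40 (standard error 0.12, limma adjusted p = 0.710). The other EGR and NR4A genes of the list are not among the models of the table. The list for bHLH-PAS genes had 35 symbols and also held period genes, whose proteins have PAS domains but are not bHLH factors. Of these symbols, 3 models other than npas4a were found, the period genes per2 and per3 and the bHLH-PAS gene npas2. The clock genes per2, npas2 and per3 stood at 1.37, 0.65 and 0.54 (standard errors 0.24, 0.13 and 0.13), with limma adjusted p of 0.213, 0.316 and 0.469. Groups did not overlap in these 3, as in 391 of the 414 higher models of the table (58.4% of all models). Npas2, despite its name, is a partner of the clock protein Bmal1 in mammals.

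Of 70 symbols for GPR3-type receptors and the Gs, cyclic AMP and CREB pathway, 3 models other than GPR3 were found. They were SIK1, its relative sik2b at 0.66 (standard error 0.23, limma adjusted p = 1) and pde8a, a phosphodiesterase that breaks down cyclic AMP, at 0.51 (standard error 0.17, limma adjusted p = 0.990). No adenylate cyclase, protein kinase A or CREB gene of the list is among the models of the table. The same was true of all 59 activity-regulated synaptic and neuropeptide genes, bdnf among them, and of the 40 voltage-gated sodium and calcium channel genes listed. That list left out the auxiliary subunit genes cacna2d4a and cacna2d4b, which are in the table at −0.40 and −0.44 and were found after their values were seen. As the table holds only models past the authors' limits, this does not show that these genes did not differ.

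Few markers of other cell types were in the table. In limma 0 of them passed the adjusted threshold, as did 0% of the table in either direction, so this says nothing particular about them. Of 39 photoreceptor and pineal markers 5 were in the table. All 5 had a lower treated mean, beside 38.2% of the table (lowest adjusted p = 0.266 from limma). Groups did not overlap in 3 of them, beside 238 of the 256 lower models of the table (35.5% of all models). In limma 4 of them were lower at an unadjusted p under 0.05, beside 253 of the 256 lower models (37.8% of all models). Their summed level was 94.9 to 158 CPM in untreated and 70.4 to 97.9 CPM in treated libraries, so that the sums overlapped. In all 5, untreated replicate 1 was the lowest untreated library, as in npas4a, EGR4 (2 of 2) and GPR3 and in 47.8% of the table. The list does not hold every photoreceptor gene, and others in the table went both ways, more of those found being lower. Lower ones include cnga3a at −0.59, cnga3b at −0.43 and CNGB3 (2 of 2) at −0.73. RGS9BP at −0.80, impg1a at −0.71 and IMPG2 (2 of 4) at −0.73 were lower too. Higher ones include six7 at 0.45 and kcnv2b at 0.42. All of these were found after values were seen. Of 36 leukocyte markers 4 were in the table, namely mmp9, mmp13a, bin2b and cxcr4a. All 4 had a higher treated mean, beside 61.8% of the table (lowest adjusted p = 0.372 from limma). Their groups did not overlap, as in 391 of the 414 higher models of the table (58.4% of all models). In limma all 4 were higher at an unadjusted p under 0.05, beside 372 of the 414 higher models (55.5% of all models). Their summed levels were 22.8 to 28.5 CPM in untreated and 48.3 to 155 CPM in treated libraries, mostly from the matrix metalloproteinases mmp9 and mmp13a, at 6.66 and 5.22 log2(CPM + 1) in H2O2 replicate 3. These are also made by cells other than leukocytes. The differences of bin2b and cxcr4a were 0.52 and 0.42, both with an adjusted p of 1 by limma. The leukocyte list does not hold every leukocyte gene, and inpp5d at −0.41 and plcg2 at −0.45, found after values were seen, were lower. None of the markers on the photoreceptor and leukocyte lists stood at 0 in any library. Their part in the levels of the 4 genes was not tested.

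None of the 4 gene models overlapped another model of the table, and their neighbours were looked up after values were seen. The nearest to npas4a was fosl1a, 98.7 kb away on chromosome 14, with a difference of the opposite sign. The nearest to EGR4 (2 of 2) was cyr61, 126 kb away on chromosome 23, which was lower too. The nearest to GPR3 was sesn2, a stress-induced sestrin, 190 kb away and higher by 0.48, and the nearest to nr4a1 was sgk1, 458 kb away and higher by 0.56. The 4 genes lie on 3 chromosomes, with EGR4 (2 of 2) and nr4a1 both on chromosome 23.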

How the data were processed

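According to the study's methods, the authors trimmed the reads, aligned them with RSEM to Ensembl transcripts of Zv9, expressed them as CPM and tested them with edgeR. The submitters' processing notes further list TopHat, Bowtie2 (version 2.0.9), Cufflinks and Cuffdiff. The authors deposited log2(CPM + 1) per library for 670 selected models; their log2 fold changes, p-values and FDR were not used, and the separate tables of higher and lower models differ from the main one in 0 lines. Reads were recovered from the steps between values. Differences of group means were fitted by limma 3.58.1 in R 4.3.3 over all 670 models (prior degrees of freedom 4.40), two-sided, with Benjamini-Hochberg adjustment over the genes that the study counts as expressed, because the table had been selected on these libraries. A count test was not run, since reads exist only for selected models. The fit was tested on simulated data with adjustment over the 670 models alone, so that check does not cover the wider adjustment used here. The genes, the 13 lists, the rule for named genes (the 4 largest differences of a list and the 3 nearest profiles of a gene) and the alternatives were chosen with earlier results of these data known. Reference names were found for 564 models. Lists were matched by the symbols of the table, so models under other names were missed. The p-values weigh a difference of means against the spread between these pools, moderated over models that had been selected by p.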

Additional observations from a re-analysis of the deposited data

How the results depend on the processing

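The alternatives were pseudocounts of 0.1 and 5, medians, the ratio of mean CPM, a replicate block, a mean log2(CPM + 1) of at least 3, other moderation and adjustment, leaving out each library and, chosen after seeing the data, reference names in the lists. The direction of the 4 genes is fixed by their choice, as their groups do not overlap, so only the sizes are given. With a pseudocount of 5 the differences were −1.50 in npas4a, −0.87 in EGR4 (2 of 2) and −0.80 in GPR3, since it compresses low levels. Leaving out single libraries gave −2.32 to −1.89 in npas4a, −1.49 to −1.23 in EGR4 (2 of 2), −1.21 to −0.999 in GPR3 and −0.65 to −0.44 in nr4a1. Same-numbered libraries did not deviate together (correlations across models of −0.0014, −0.11 and −9.6e-05), and the numbers were not taken as pairs. These correlations rest on 3 libraries per group and on models selected by p, so they cannot settle whether same-numbered libraries were pairs. The replicate block left the differences as they were and gave 71 models past the adjusted threshold over the table against 0 without it. The number of models passing was 617 when adjusted over the table alone, which is circular, and 0 to 9 with single libraries left out, reaching 9 without H2O2 replicate 2 and 1 without H2O2 replicate 3. With a mean of at least 3, EGR4 (2 of 2) and nab1b dropped out, leaving 1 higher and 1 lower model on the EGR and NR4A list and 136 lower models at an unadjusted p under 0.05 against 253. Treated libraries held 98 to 221 reads of npas4a, 92 to 139 of EGR4 (2 of 2) and 137 to 236 of GPR3. With 1287 to 1588 reads in the treated libraries, nr4a1 had the smallest counting error.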
